A study of Sus scrofa with 4 samples.

Results

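Peroxiredoxins and thioredoxins are the thiol enzymes that remove peroxides inside cells, and their transcripts were followed here in mature porcine oocytes with and without copper (Cu). The 10 genes were chosen by symbol, with earlier results of these data known. They were the 6 peroxiredoxins PRDX1 to PRDX6, the thioredoxins TXN and TXN2, and the thioredoxin reductases TXNRD1 and TXNRD2. The deposited table held 16050 genes with values. Of the 10 genes, 9 had values and all 9 passed the filter on low values, while TXNRD2 was listed without values in every library. Oocytes labelled Metaphase II, from cumulus-oocyte complexes matured in vitro, were compared between a Control group without added Cu and a group exposed to Cu as copper sulfate in the maturation medium. The dose used after the dose series was 25 μg/mL, and maturation took 44 h. Each library pooled 3 oocytes from slaughterhouse ovaries, and their polyadenylated RNA was copied and amplified by Smart-seq2, which suits single or few cells. The methods describe 3 sets per group, and 2 libraries per group were analysed here, namely Control 1 and 2 and the libraries labelled Cu 1 and Cu 3. The sources do not say which females gave the oocytes of each library, so the p-values measure only the spread between these libraries.

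Peroxiredoxins reduce hydrogen peroxide and organic peroxides with a reactive cysteine, which is oxidised in the reaction. In the typical members the oxidised cysteines form a disulfide that thioredoxin reduces, and thioredoxin is in turn reduced by thioredoxin reductase, a selenoprotein that takes electrons from NADPH. Cytosol, mitochondria and endoplasmic reticulum hold different members of the system. Excess Cu can produce reactive oxygen species by redox cycling. A fully grown oocyte at metaphase II makes almost no new RNA, so its transcripts are largely those stored during growth and kept, or degraded, during maturation.

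None of the 9 genes differed between the groups at an adjusted p of 0.05, and neither did any other of the 8541 tested genes (0% called), of which 599 were at an unadjusted p of 0.05 or less. Expression was given by the authors as FPKM, fragments scaled to the length of the transcript and the size of the library. The groups were compared as differences in log2(FPKM + 1) with limma across all genes that reached 1 FPKM in 2 or more libraries. PRDX6 was the only one of the 9 at an unadjusted p of 0.05 or less, with lower values in Cu (adjusted p = 0.656 in limma's test), whereas 1.43% of all tested genes were called in that direction. No member was called in the higher direction, where the background was 5.58%. Without the filter on low values PRDX4, higher in Cu, was called in place of PRDX6 (adjusted p = 0.818 for both in limma's test). The PRDX6 call was also lost without Control 1 or without Control 2, where the difference was -0.83 and -1.06 on the log2 scale and the lone Control library is assumed to vary like the Cu pair. These counts also turned on the Cu libraries. When Cu 3 was left out, so that Cu 1 alone was compared with the Control pair and assumed to vary as it does, PRDX1, PRDX3, PRDX5, TXN2 and TXNRD1, 5 of the 9, were called as higher in Cu by limma with an adjusted p up to 0.05, and 1755 of the 8541 tested genes were called in either direction. When Cu 1 was left out instead, 0 of the 9 and 186 of all tested genes were called.

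The groups did not overlap, with both Cu libraries higher, for PRDX3, PRDX4 and TXNRD1, 3 of 9 genes against 25.4% of all tested genes. They did not overlap in the other direction for PRDX6, 1 of 9 genes against 13.4%. These shares were near the background. Of the 9 genes, 6 were higher and 3 lower in Cu, a share near that of all tested genes, where 5494 of 8541 were higher. The median difference between Cu and Control was 0.82 on the log2 scale over the 9 genes and 0.16 over all tested genes. Most of this median came with the library Cu 1. Without Cu 1 it was 0.024, and without Cu 3 it was 1.51. Of the 9 genes, 7 had their highest value in Cu 1, against 51.0% of all tested genes. When a library is left out, the number of genes with the groups apart can only stay or rise. It went from 3 to 5 above without Control 1 and to 7 without Cu 3, and from 1 to 2 below without Control 2 and to 3 without Cu 1. No share of all tested genes is given for these fits, so no conclusion is drawn from the rise.

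**Figure D1:**
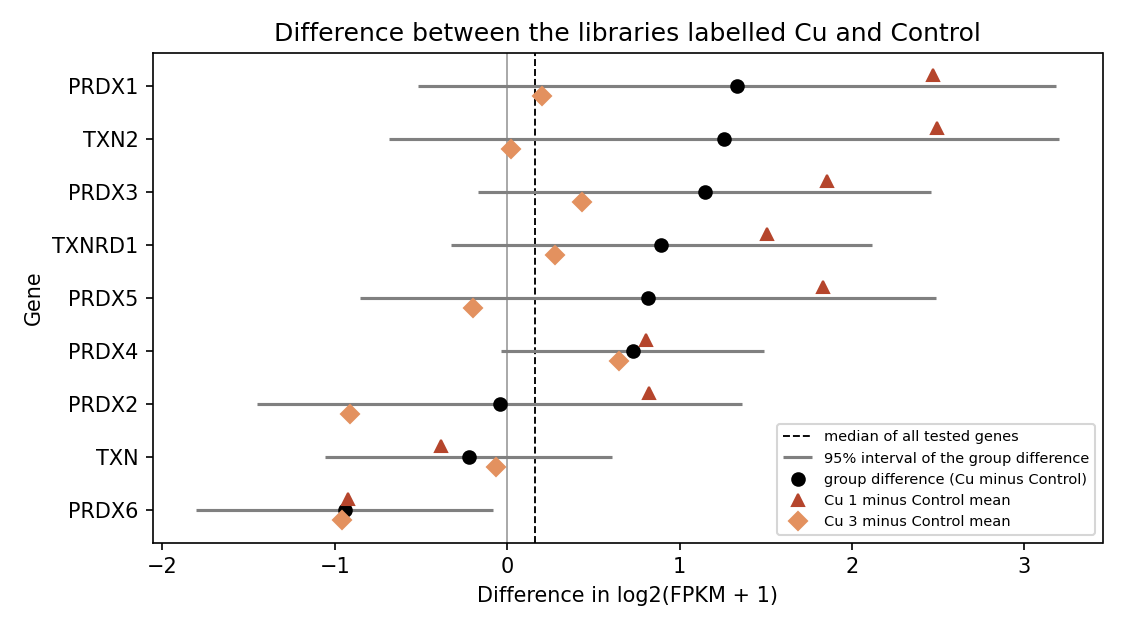
Difference between Cu and Control for the 9 genes with values, in log2(FPKM + 1), with the group difference as a black point, its 95% interval from limma as a grey line, each Cu library minus the Control mean as a coloured symbol, and the median of all tested genes as a dashed line. Only the interval of PRDX6 (-1.80 to -0.083) lies wholly on one side of 0, and Cu 1 stands far to the right of Cu 3 for PRDX1, TXN2, PRDX3, TXNRD1, PRDX5 and PRDX2.

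The libraries themselves differed in ways that touch these values. FPKM does not keep read numbers, and the depth is therefore unknown. Cu 1 had 9364 genes at 1 FPKM or more, and the other libraries had 7923 to 8162. Most defining oocyte transcripts were abundant, with 11 of 12 markers listed and all 11 tested, summing to 7116 and 9830 FPKM in Control against 9019 and 8428 in Cu, led by DPPA3 and KPNA7. ZAR1 (4.56 to 24.9 FPKM), FIGLA (0.96 to 15.4 FPKM) and NLRP5 (1.88 to 8.7 FPKM), named after their values were seen, were much lower. Of 19 markers of cumulus and granulosa cells, 12 had values, 9 of these were under 1 FPKM in every library, AMH and NR5A2 were listed at 0 throughout, and FSHR, LHCGR, CYP11A1, INHA and FOXL2 had no values. Their sum was nevertheless higher in Cu, at 13.2 and 20.9 FPKM in Control against 30.6 and 27.5 in Cu, through SERPINE2 (1.59 and 2.93 FPKM against 14.2 and 12.7 FPKM) more than FST (10.2 and 16.0 FPKM against 13.7 and 13.8 FPKM). The 6 red blood cell markers, fixed because PRDX2 is a major protein of red cells, had 3 members with values, and these summed to 0.26 and 0.04 FPKM in Control against 2.69 and 2.53 in Cu, led by AHSP (0, 0, 1.88 and 1.80 FPKM in Control 1, Control 2, Cu 1 and Cu 3) and HBM. HBB, the beta-globin gene, had no values. Of the 8 leukocyte markers, 4 had values and summed to 1.30 and 3.37 FPKM in Control against 4.03 and 2.35 in Cu. The part of these transcripts, or of the larger number of genes in Cu 1, in the differences below was not tested. In pooled oocytes, a different number of other cells and a different amount of RNA per cell cannot be told apart.

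In all 4 libraries the system was dominated by PRDX2 and TXN, which together made up 90.8% to 96.6% of the summed FPKM of the 9 genes. FPKM is scaled to transcript length, so levels can be compared between genes. PRDX2 was the highest of the 9 in every library and ranked between 35 and 154 among all 16050 genes with values, and TXN was second and ranked between 89 and 204. PRDX1 and PRDX4 came next in every library, in an order that changed between libraries, from the 83.8th to the 96.3rd percentile for PRDX1 and from the 84.9th to the 89.8th for PRDX4. PRDX3, PRDX5, PRDX6, TXN2 and TXNRD1 were much lower, between the 50.5th and the 83.3rd percentile, and their order also changed from library to library. In both Control libraries the values of these 5 genes lay between 3.19 and 5.14 FPKM. Within this low group only PRDX3 and TXNRD1 kept their order in all 4 libraries, with PRDX3 at 1.23 to 1.61 times the FPKM of TXNRD1. PRDX6 was above TXN2 and TXNRD1 in both Control libraries and the lowest of the 9 in both Cu libraries.

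**Figure D2:**
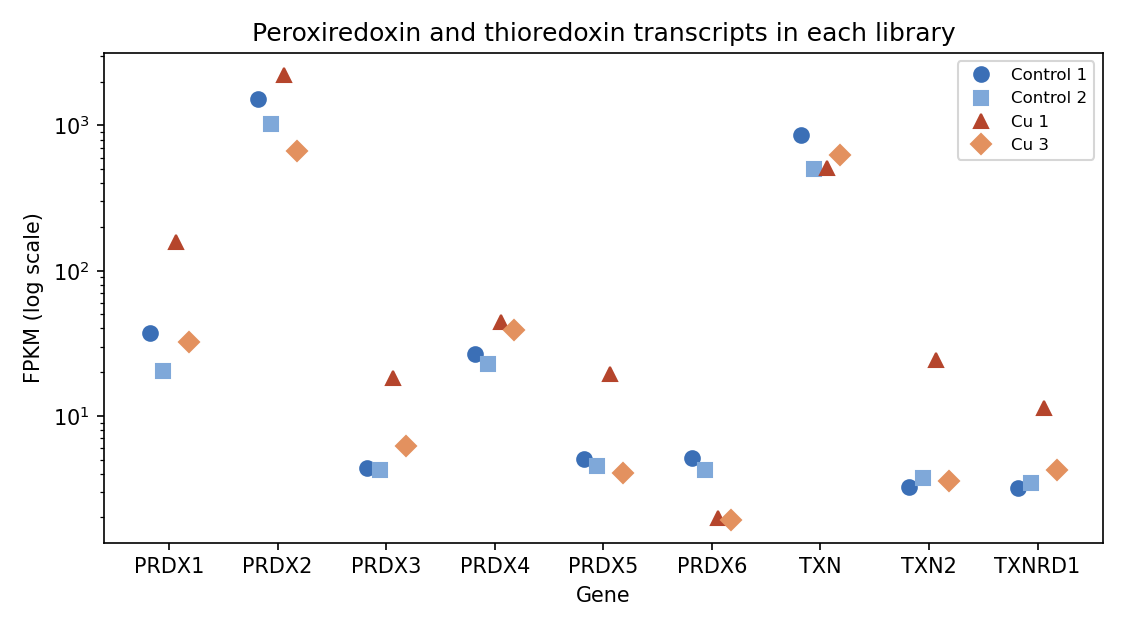
FPKM on a log scale of each gene with values in Control 1, Control 2, Cu 1 and Cu 3, with 1 symbol per library. PRDX2 (666 to 2218 FPKM) and TXN (502 to 866 FPKM) stand above the rest, and PRDX6 is the only gene with both Cu libraries below both Control libraries.

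PRDX2 and PRDX1 are the cytosolic typical peroxiredoxins that use TXN as their reductant. PRDX2 (gene identifier 100512521, Sscrofa11.1 chr2:66207829-66211474) was at 1534 FPKM in Control 1 and 1021 FPKM in Control 2, against 2218 FPKM in Cu 1 and 666 FPKM in Cu 3. The Cu libraries were thus the highest and the lowest of the 4, on either side of both Control libraries. Its difference between Cu and Control was -0.043 on the log2 scale (standard error 0.58, 95% interval -1.45 to 1.36, adjusted p = 0.989 in limma's test), and the sign depended on the library, with 0.82 without Cu 3, 0.25 without Control 1 and -0.91 without Cu 1. The authors' mean FPKM, which by their decimals average 3 libraries, were 1127 for Control and 1530 for Cu. PRDX1 (identifier 100512476, chr6:165847390-165859918) was at 37.5 FPKM in Control 1 and 20.4 FPKM in Control 2, against 158 FPKM in Cu 1 and 32.0 FPKM in Cu 3. Only Cu 1 stood apart, 4.92 times as high as Cu 3, while Cu 3 lay between the Control libraries. The difference was 1.33 on the log2 scale (standard error 0.76, 95% interval -0.52 to 3.19, adjusted p = 0.738 in limma's test), 2.47 without Cu 3 and 0.20 without Cu 1. The authors' means of PRDX1 were 43.8 FPKM for Control and 73.9 FPKM for Cu.

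PRDX4 is the peroxiredoxin of the endoplasmic reticulum, where it takes part in oxidative protein folding. PRDX4 (identifier 100152260, chrX:19800153-19819575) was at 26.9 FPKM in Control 1 and 22.8 FPKM in Control 2, against 44.1 FPKM in Cu 1 and 39.3 FPKM in Cu 3. Here the Cu libraries resembled each other, with a gap of 0.16 on the log2 scale against 0.23 between the Control libraries, and the groups did not overlap. The difference was 0.73 on the log2 scale (standard error 0.31, 95% interval -0.035 to 1.49, adjusted p = 0.708 in limma's test). It stayed between 0.61 and 0.84 with each library left out, and was 0.49 after median-of-ratios scaling. The authors' means of PRDX4 were 25.6 FPKM for Control and 38.2 FPKM for Cu.

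PRDX3 and TXN2 are the peroxiredoxin and the thioredoxin of the mitochondrial matrix, which TXNRD2 reduces, and PRDX5 is an atypical peroxiredoxin found in mitochondria, peroxisomes and cytosol. PRDX3 (identifier 100154143, chr14:129079050-129090790) was at 4.36 FPKM in Control 1 and 4.24 FPKM in Control 2, against 18.2 FPKM in Cu 1 and 6.16 FPKM in Cu 3. Both Cu libraries were higher than either Control library, but Cu 1 was 2.95 times as high as Cu 3. The difference was 1.15 on the log2 scale (standard error 0.54, 95% interval -0.17 to 2.46, adjusted p = 0.708 in limma's test), 1.86 without Cu 3 and 0.43 without Cu 1. The authors' means of PRDX3 were 5.22 FPKM for Control and 17.8 FPKM for Cu, so that the Control mean lay above both Control libraries analysed here. If the means average 3 libraries, as their decimals fit, the Control library not analysed here was above Cu 3. By the same reading the Cu library not analysed here was above Cu 1, and the groups would overlap for PRDX3. TXN2 (identifier 100158080, chr5:11264470-11289388) was at 3.23 FPKM in Control 1 and 3.71 FPKM in Control 2, against 24.1 FPKM in Cu 1 and 3.54 FPKM in Cu 3. The high value of TXN2 was that of Cu 1 alone, and Cu 3 lay between the Control libraries. The TXN2 difference was 1.26 on the log2 scale (standard error 0.79, 95% interval -0.69 to 3.20, adjusted p = 0.758 in limma's test) and 2.49 without Cu 3, but 0.024 without Cu 1. PRDX5 (identifier 397273, chr2:7798672-7801955) was at 5.03 FPKM in Control 1 and 4.51 FPKM in Control 2, against 19.6 FPKM in Cu 1 and 4.03 FPKM in Cu 3, so that Cu 3 was the lowest of the 4 libraries. Its difference of 0.82 on the log2 scale (standard error 0.68, 95% interval -0.85 to 2.49, adjusted p = 0.801 in limma's test) was 1.83 without Cu 3 and -0.20 without Cu 1. TXNRD2 (identifier 100156736, chr14:51355731-51385096), the mitochondrial reductase, was in the table without values, so its level was not analysed here.

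PRDX6 is the peroxiredoxin with a single catalytic cysteine, which is reduced by glutathione rather than thioredoxin and also has phospholipase activity. PRDX6 (identifier 399538, chr9:115857629-115868898) was at 5.14 FPKM in Control 1 and 4.22 FPKM in Control 2, against 1.98 FPKM in Cu 1 and 1.91 FPKM in Cu 3. The Cu libraries were close to each other, with a gap of 0.034 on the log2 scale, and both were below both Control libraries. The difference was -0.94 on the log2 scale (standard error 0.35, 95% interval -1.80 to -0.083, adjusted p = 0.656 in limma's test), or 1.11 below the median of all tested genes. It was between -1.06 and -0.83 with each library left out, and -1.22 after quantile normalization. The authors' means of PRDX6 were 5.56 FPKM for Control and 3.23 FPKM for Cu, so that the Cu mean lay above both Cu libraries analysed here. If it averages 3 libraries, as its decimals fit, the Cu library not analysed here was above both Control libraries analysed here. With that library the groups would overlap for PRDX6. On the genome the PRDX6 interval overlaps that of LOC100624136, with 2.45, 1.09, 2.44 and 1.86 FPKM in Control 1, Control 2, Cu 1 and Cu 3, and the PRDX2 interval overlaps that of RNASEH2A, a subunit of ribonuclease H2, with 14.6, 8.53, 21.3 and 10.6 FPKM in the same order. How reads in overlapping genes were assigned is not given in the sources used here.

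TXN, the cytosolic thioredoxin, and TXNRD1, its reductase, differed in level by between 44.8 and 271 times in FPKM. TXN (identifier 397581, chr1:251264180-251278000) was at 866 FPKM in Control 1 and 502 FPKM in Control 2, against 506 FPKM in Cu 1 and 630 FPKM in Cu 3. The Cu libraries lay between the Control libraries. The difference was -0.22 on the log2 scale (standard error 0.34, 95% interval -1.06 to 0.61, adjusted p = 0.898 in limma's test), and 0.17 without Control 1, which was the highest library. Without Control 2 it was -0.62, without Cu 1 it was -0.064, and without Cu 3 it was -0.38. The authors' means of TXN were further apart, at 976 FPKM for Control and 544 FPKM for Cu. TXNRD1 (identifier 396681, chr5:80170334-80213889) was at 3.19 FPKM in Control 1 and 3.44 FPKM in Control 2, against 11.3 FPKM in Cu 1 and 4.23 FPKM in Cu 3. Both Cu libraries were higher than either Control library, Cu 1 by far the more. The TXNRD1 difference was 0.89 on the log2 scale (standard error 0.50, 95% interval -0.33 to 2.12, adjusted p = 0.734 in limma's test), 1.51 without Cu 3 and 0.28 without Cu 1.

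The spread within the Cu group was larger than that within Control for 6 of the 9 genes, against 70.5% of all tested genes. The gap between Cu 1 and Cu 3 had a median of 1.42 on the log2 scale over the 9 genes, where the gap between the Control libraries had a median of 0.23, and over all tested genes these medians were 0.56 and 0.27. For 7 of the 9 genes the gap between the Cu libraries exceeded the difference between the groups, and PRDX4 and PRDX6 were the genes for which it did not. Over all tested genes the Cu gap exceeded the group difference in 66.2%. For a single gene, the smallest p of an exact two-sided permutation test is 0.333 with 2 libraries in each group.

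Ratios within a library do not depend on how the libraries were scaled. PRDX2 made up 95.1% and 94.8% of the summed peroxiredoxin FPKM in Control 1 and 2 and 90.2% and 88.9% in Cu 1 and 3. Both Cu libraries were below both Control libraries in this share. From the authors' means the PRDX2 share was 93.0% for Control, lower than in either Control library. It was 91.5% for Cu, higher than in either Cu library, so that the groups lay closer together. If these means average 3 libraries, as their decimals fit, the Control library not analysed here was below both Cu libraries. With that library the groups would overlap in this share. In Cu 1 PRDX1 took up most of the rest with 6.41%, and in Cu 3 PRDX4 took up 5.25% and PRDX1 4.28%, compared with 2.32% and 1.89% for PRDX1 and 1.67% and 2.12% for PRDX4 in Control 1 and 2. The PRDX3 share was 0.27% and 0.39% in Control and 0.74% and 0.82% in Cu, and the PRDX6 share was 0.32% and 0.39% in Control and 0.081% and 0.25% in Cu. The summed FPKM of the 5 peroxiredoxins other than PRDX2 was 78.9 and 56.2 in Control and 241 and 83.5 in Cu.

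**Figure D3:**
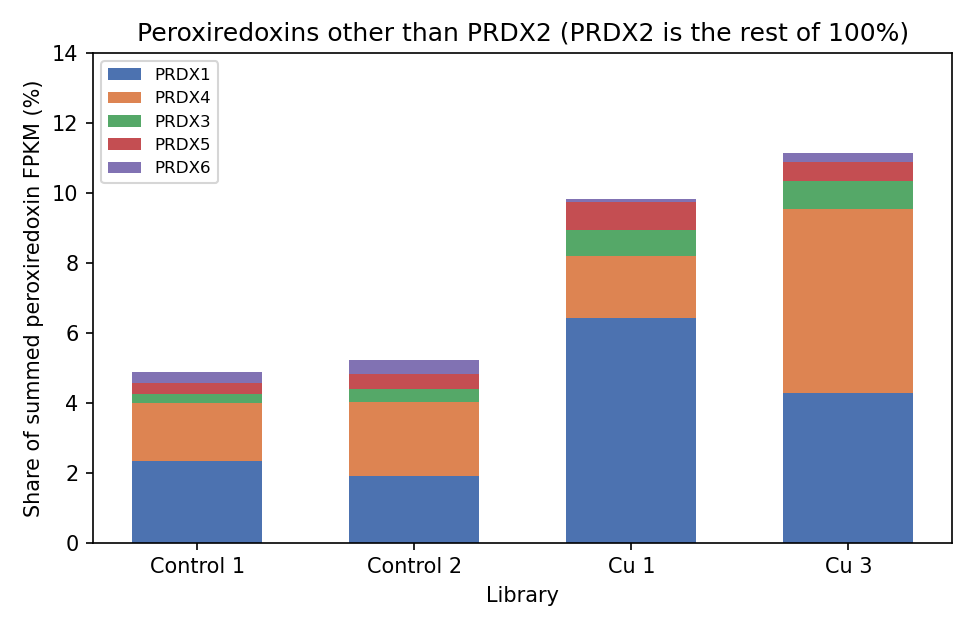
Share of the summed peroxiredoxin FPKM, in percent, taken by PRDX1, PRDX4, PRDX3, PRDX5 and PRDX6 in each library, with PRDX2 as the rest. The stacked bars are about as high in Control 1 as in Control 2 and higher in both Cu libraries, where PRDX2 holds 90.2% and 88.9%.

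Over the 36 pairs that can be formed from the 9 genes, the FPKM ratio had both Cu libraries on one side of both Control libraries in 19, compared with 39.0% of all pairs among the 8503 tested genes above 0 in every library. All 8 pairs with PRDX6 were among the 19, and 11 of the 28 pairs without it, a share near the background. Pairs share genes and are not independent. The ratio of PRDX4 to PRDX6, singled out after its values were seen, was 5.23 and 5.41 in Control 1 and 2 and 22.2 and 20.6 in Cu 1 and 3. The 2 libraries of each group lay close together in that ratio. From the authors' means, however, it was 4.61 for Control and 11.8 for Cu, the latter well below both Cu libraries. If these means average 3 libraries, as their decimals fit, the Cu library not analysed here lay between Control 1 and 2 in this ratio. With that library the groups would overlap in it, so that not all 8 pairs with PRDX6 would stay apart. The ratio of PRDX3 to PRDX6, chosen in the same way, was 0.85 and 1.0 in Control and 9.19 and 3.23 in Cu, and that of PRDX2 to PRDX1 was 40.9 and 50.1 in Control and 14.1 and 20.8 in Cu. From the authors' means the ratio of PRDX2 to PRDX1 was 25.7 for Control and 20.7 for Cu, a smaller gap than between the libraries. On the same reading as 3 libraries, the Control library not analysed here was below both Cu libraries in this ratio. The Cu library not analysed here was above both Control libraries, so the groups would overlap. The ratio of TXN to TXNRD1 overlapped between the groups, at 271 and 146 in Control and 44.8 and 149 in Cu. The mitochondrial ratio of PRDX3 to TXN2 also overlapped, at 1.35 and 1.14 in Control and 0.75 and 1.74 in Cu.

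The partners and regulators of the system had medians closer to 0 than the 9 genes had, a difference between lists that was not tested and that moved with the Cu libraries. Without Cu 1 the median was 0.024 for the 9 genes and 0.15 for genes linked to the transcription factor NRF2, and without Cu 3 it was 1.51 for the 9 genes and 0.52 for the thioredoxin partners. Of 29 thioredoxin partners (thioredoxin-like proteins, glutaredoxins, methionine sulfoxide reductases, ribonucleotide reductase, sestrins and others), 28 had values and 19 were tested, with 2 at an unadjusted p of 0.05 or less, both higher in Cu against a background of 5.58%, and a median difference of 0.065 on the log2 scale. The 2 were TXNDC17, a small thioredoxin-like oxidoreductase, and TXNL4A, a spliceosome protein with a thioredoxin fold. TXNDC17 was at 231 FPKM in Control 1 and 222 FPKM in Control 2, against 393 FPKM in Cu 1 and 480 FPKM in Cu 3, a difference of 0.94 with a standard error of 0.26 (adjusted p = 0.641 in limma's test). TXNL4A was at 231 and 120 FPKM in Control against 338 and 311 in Cu, a difference of 0.96 with a standard error of 0.37 (adjusted p = 0.676 in limma's test). By the authors' means both genes differed less between the groups. These means were 338 FPKM for Control and 378 FPKM for Cu for TXNDC17, and 217 and 274 FPKM for TXNL4A. If they average 3 libraries, as their decimals fit, the groups would overlap for both genes with the libraries not analysed here. Among the libraries analysed here, the groups did not overlap for TXNDC17, TXNL4A and TXNDC5, which were higher in Cu. Nor did they overlap for the ribonucleotide reductase subunits RRM1, RRM2 and RRM2B and the sestrin SESN1, which were lower in Cu. These were 3 of 19 higher against 25.4% of all tested genes and 4 of 19 lower against 13.4%. Apart from TXNDC17 and TXNL4A, these genes were named after their values were seen. By the authors' means SESN1 was instead slightly higher in Cu (38.0 FPKM for Control, 40.6 FPKM for Cu), and the others kept their direction. RRM1, which needs thioredoxin or glutaredoxin as electron donor, was at 40.2 FPKM in Control 1 and 45.5 FPKM in Control 2, against 31.1 FPKM in Cu 1 and 26.6 FPKM in Cu 3 (adjusted p = 0.733 in limma's test). SRXN1, the sulfiredoxin that restores overoxidised peroxiredoxins, also named after its values were seen, was not tested, with 0.12, 0, 0 and 0.02 FPKM in Control 1, Control 2, Cu 1 and Cu 3.

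Thioredoxin reductases carry selenocysteine, and of 11 symbols for selenocysteine incorporation 8 genes were tested, none at an unadjusted p of 0.05 or less, with a median difference of 0.083. Their most abundant genes were TRNAU1AP, which binds the selenocysteine transfer RNA, at 111 and 88.3 FPKM in Control against 91.1 and 153 in Cu, SECISBP2, which binds the recoding element of selenoprotein transcripts, at 78.1 and 73.7 FPKM in Control against 60.1 and 52.2 in Cu, and SEPHS2, the selenophosphate synthetase, at 57.2 and 68.3 FPKM in Control against 86.9 and 47.9 in Cu. Of the 8 tested genes, 1 had the groups apart with Cu lower, SECISBP2, against 13.4% of all tested genes. With Cu higher there were 0 of 8, against 25.4%. The authors' means of SECISBP2 were close, at 65.8 FPKM for Control and 64.4 FPKM for Cu. Of 15 genes for the transcription factor NRF2, which induces several peroxiredoxin and thioredoxin genes in somatic cells, its regulators and other targets, 8 were tested, none at an unadjusted p of 0.05 or less, with 4 higher, 4 lower and a median difference of 0.029. The groups were apart with Cu higher for 2 of the 8, GCLC and GCLM, against 25.4% of all tested genes. They were apart with Cu lower for 2 of the 8, SLC7A11 and NFE2L2, the gene of NRF2, against 13.4%. Apart from GCLC, these genes were named after their values were seen. GCLC, the catalytic subunit of the enzyme that begins glutathione synthesis, was at 25.5 and 31.1 FPKM in Control against 47.3 and 40.7 in Cu (adjusted p = 0.721 in limma's test). The authors' means of GCLC were 28.8 FPKM for Control and 37.4 FPKM for Cu. If the means average 3 libraries, as their decimals fit, the Cu library not analysed here was below both Control libraries for GCLC. With the libraries not analysed here the groups would overlap for GCLC, GCLM, SLC7A11 and NFE2L2. Among the other abundant genes of this list, NNT, a mitochondrial source of NADPH, was at 33.9 and 38.5 FPKM in Control against 35.5 and 33.0 in Cu, and PGD, of the pentose phosphate pathway, was at 25.4 and 27.9 FPKM in Control against 39.8 and 16.0 in Cu. The medians of these 3 lists changed sign after quantile normalization.

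**Figure D4:**
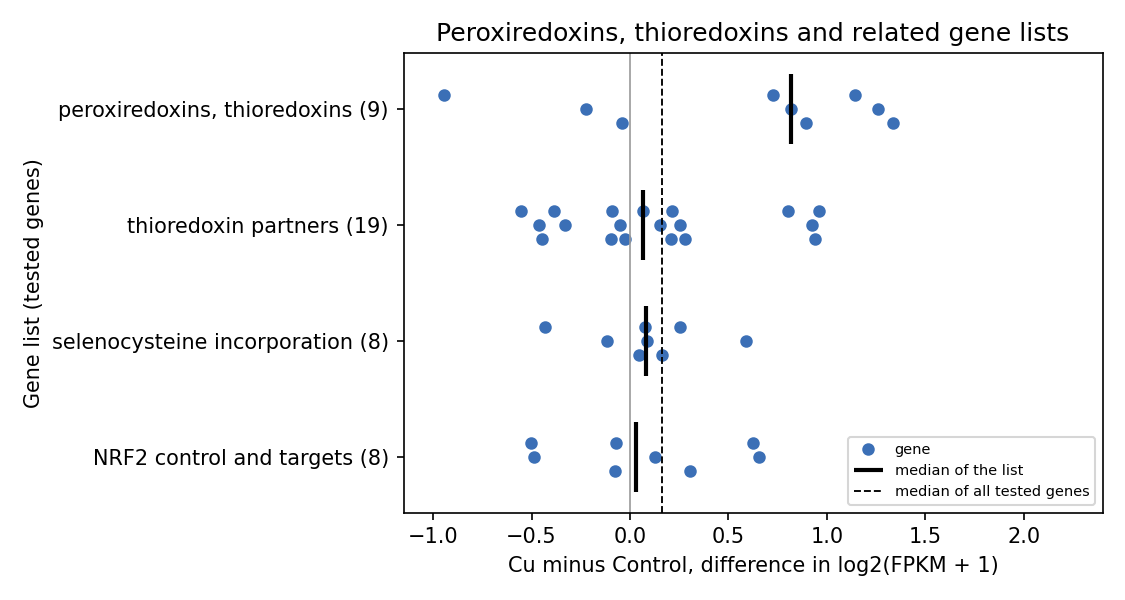
Difference between Cu and Control in log2(FPKM + 1) for each tested gene of the 4 lists, with the number of tested genes in brackets, the median of each list as a black bar and the median of all tested genes (0.16) as a dashed line. The median of the peroxiredoxins and thioredoxins (0.82) lies to the right of those of the thioredoxin partners (0.065), selenocysteine incorporation (0.083) and NRF2 lists (0.029), and PRDX6 is the leftmost point.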

How the data were processed

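The authors deposited expression values as FPKM, rounded to 2 decimals, per library and as a mean of each group. Per the paper's methods, reads were filtered with SOAPnuke, mapped with HISAT2 and Bowtie2 and quantified with RSEM. The submitters' processing notes instead name TopHat2 2.0.13, Cufflinks 2.2.1, Cuffnorm and Cuffdiff with Sscrofa11.1, and which of the pipelines made the table is not given in the sources used here. Columns were matched to samples by group letter and replicate number.

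The 8541 genes that reached 1 FPKM in 2 or more libraries were tested on log2(FPKM + 1), using limma 3.58.1 under R 4.3.3 (lmFit, eBayes with a variance trend, Benjamini-Hochberg adjustment over all tested genes). The planned fallback for FPKM was thus used and no count test was run. The authors' means were used only as such. The function was tested on simulated data. Gene positions are those of the RefSeq table of Sscrofa11.1, in which all 10 identifiers matched. The genes, lists and alternatives were chosen with earlier results of these data known. Named genes were the 10 genes, genes of each list at an unadjusted p of 0.05 or less or else its 3 most abundant, and the 2 most abundant of each marker list, and exceptions are marked. Some results under this rule are not reported here.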

Additional observations from a re-analysis of the deposited data

How the results depend on the processing

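Under a pseudocount of 0.1, no filter, a filter on every library, quantile normalization, median-of-ratios scaling and no variance trend, the 9 genes kept their directions and the numbers of members called did not change, but without the filter the member called was PRDX4 and not PRDX6. The median of all tested genes was 0.16, and -0.068 and -0.042 after quantile normalization and median-of-ratios scaling. PRDX6 had an unadjusted p of 0.069 in limma's test without a filter on low values and between 0.014 and 0.035 under the other settings of this kind. By the authors' means PRDX2 turned to 0.44 on the log2 scale. When 1 library at a time was left out, the members at an unadjusted p of 0.05 or less numbered 0 to 8, those at an adjusted p of 0.05 or less 0 to 5 (5 without Cu 3), those with both Cu libraries higher than either Control library 3 to 7 and those with both lower 1 to 3. PRDX2 ranged from -0.91 to 0.82 (0.25 without Control 1), PRDX5 from -0.20 to 1.83 and TXN from -0.62 to 0.17. Over all tested genes, 0 to 1755 were then at an adjusted p of 0.05 or less (186 without Cu 1, 1755 without Cu 3) and 127 to 2958 at an unadjusted p of 0.05 or less. In these fits a lone library is assumed to vary like the pair of the other group. The counts of genes with the groups apart can only stay or rise, and no share of all tested genes is given beside them. After quantile normalization the medians were -0.16 for thioredoxin partners, -0.14 for selenocysteine incorporation and -0.20 for NRF2, and with each library left out they ranged from -0.21 to 0.52 (-0.061 without Control 2), from -0.091 to 0.11 and from -0.096 to 0.15 (-0.046 without Control 1). No paired analysis was possible because the groups share only replicate number 1. FPKM keeps no depth, so the precision of low values such as PRDX6 is unknown.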
